A study of Mus musculus with 16 samples.

Results

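Polyamine metabolism was followed through 9 genes, Odc1, Azin1, Oaz1, Oaz2, Amd1, Srm, Sms, Sat1 and Smox, among 54456 gene rows measured in OT-I T cells by RNA sequencing. The rows were chosen by gene name for their roles in making, braking and breaking down polyamines, at a time when earlier results of the same tissue and diet comparisons were known, so counts over them are a description and support nothing about the choice. All 9 had a row in the table, and all 9 were among the 15675 genes that passed the filter on low counts. The cells came from OT-I mice, whose transgenic T cell receptor recognises a peptide of ovalbumin, and were sorted as T cells from visceral adipose tissue (VAT) or lymph nodes (LN). The 4 groups of 4 libraries were HFD VAT and HFD LN, from mice fed a high-fat diet (HFD, 60% kcal fat) for 8 weeks, and lean VAT and lean LN, from mice on standard chow for the same time. Every library carries the OT-I receptor and, in its column name, the unexplained term Neg-OVA, and strain, age and sex are not given in the labels used here. The labels call the cells freshly isolated, while the design text has them cultured overnight before the sort, and the same text serves all groups.

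Polyamines (putrescine, spermidine and spermine) are small cations that bind nucleic acids and are needed for translation and growth. Ornithine decarboxylase turns ornithine into putrescine. Spermidine synthase and spermine synthase then add aminopropyl groups, which come from decarboxylated S-adenosylmethionine. Antizymes bind ornithine decarboxylase and send it to the proteasome, and the antizyme inhibitor, a relative of the enzyme without its activity, draws antizyme away. Breakdown runs through acetylation of spermidine and spermine or through direct oxidation of spermine, which gives back spermidine with hydrogen peroxide. T cells raise polyamine synthesis when they are activated, and spermidine supplies the hypusine residue of the translation factor eIF5A.

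Odc1 and Smox, which encode the enzyme of the putrescine step and the spermine oxidase, were the members that passed the test of tissue on at least 1 diet. The 2 stretches printed here lie just upstream of their start sites as RefSeq gives them (assembly GRCm38.p6, plus strand, 5′ to 3′) and hold no base of a GENCODE M21 exon: chr12:17544623-17544793 for Odc1 and chr2:131491654-131491763 for Smox. The Odc1 stretch is intergenic and ends at the gene's first annotated exon, while the Smox stretch is intronic to 1 longer Smox transcript and ends at the first exon of the next. The capitals mark matches of GGGCGG, the GC box, on either strand.
Odc1: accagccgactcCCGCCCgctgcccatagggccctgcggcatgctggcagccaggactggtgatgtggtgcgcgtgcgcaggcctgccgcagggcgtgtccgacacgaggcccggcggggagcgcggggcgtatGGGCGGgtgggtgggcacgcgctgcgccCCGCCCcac
Smox: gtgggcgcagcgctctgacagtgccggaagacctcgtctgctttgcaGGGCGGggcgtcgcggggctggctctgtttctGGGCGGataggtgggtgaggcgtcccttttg

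The Odc1 stretch ends 79 bases before the RefSeq start and holds 3 GC boxes, and the Smox stretch ends 98 bases before it and holds 2. In the whole RefSeq windows, from 250 bases before the start to 50 after it, Odc1 had 4 matches and Smox 6. GGGCGG was found in 35.7% of the 32851 windows of this length in the genome table. Of the other motifs searched on both strands, CACGTG (the E-box that MYC binds) was in 7.15% of all windows, TTCNNNGAA (a STAT site) in 8.30% and TGACGTCA (a cyclic AMP response element) in 1.79%, and none of these was in the Odc1 or Smox window. Windows were at hand for 7 of the 9 members. Among the others, GGGCGG had 4 matches in Oaz2, 2 in Sat1, 1 in Amd1 and none in Oaz1, and Sms had 4 in 1 of its 2 windows and a CACGTG in the other. The members without a window were Azin1 and Srm.

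Totals were 40212388 to 65957407 counts per library, and levels are in CPM, counts scaled to the TMM-normalised library size, in which 3 counts are worth 0.0437 to 0.0804 CPM (counting error only). Libraries of a group differed from each other far beyond sampling noise, with a chi-square per degree of freedom of 266 to 993 in the 24 replicate pairs. The labels call the libraries biological replicates without naming animals, so p-values reflect variation among libraries that could in part be technical. Drop-out of genes was uneven. Among genes whose median elsewhere in the group reached 10 CPM, replicates 1 and 3 of HFD VAT had 11.4% and 11.5% at 3 counts or fewer, replicate 1 of lean VAT had 13.3%, and the other 13 libraries had 0.818% to 5.45%. T cell markers were present throughout: all 9 of the list passed the filter, with a summed level of 10010 to 10870 CPM in HFD VAT, 8281 to 9381 in HFD LN, 9027 to 11590 in lean VAT and 8181 to 10030 in lean LN.

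Markers of some other cell types moved with tissue. The 14 B cell markers summed to 169 to 360 CPM in HFD VAT against 1787 to 2684 in HFD LN, and to 85.7 to 221 CPM in lean VAT against 1652 to 3281 in lean LN, with Fcmr and Bank1 at 0 in both VAT groups. The 12 macrophage markers, of which 1 passed the filter, summed to 33.4 to 145 CPM in HFD VAT against 0.0512 to 2.45 in HFD LN, and to 27.5 to 78.7 CPM in lean VAT against 0.162 to 6.14 in lean LN. C1qa was at 0 in every group, as was Cd14 in HFD VAT, HFD LN and lean VAT, while C1qc was at 0 in HFD VAT. The 6 dendritic cell markers summed to 59.8 to 110 CPM in HFD VAT against 0.443 to 16.8 in HFD LN, and to 35.1 to 82.5 CPM in lean VAT against 0.174 to 22.3 in lean LN, with Flt3 and Siglech at 0 in HFD VAT. The 6 adipocyte markers never summed to more than 2.00 CPM, with Adipoq at 0 in both VAT groups. The 4 endothelial markers, of which 1 passed the filter, summed to 43.5 to 98.4 CPM in HFD VAT against 124 to 204 in HFD LN, and to 29.0 to 67.5 CPM in lean VAT against 70.3 to 168 in lean LN. Of these markers Cldn5 was at 0 in every group, and Cdh5 was at 0 in both HFD groups. The 6 fibroblast markers, none above the filter, summed to 0 to 40.6 CPM in HFD VAT against 0.0393 to 0.947 in HFD LN. In lean animals they summed to 0 to 11.9 CPM in VAT against 0.0580 to 0.952 in LN, so the tissues overlapped on both diets. The 6 natural killer markers overlapped between tissues on both diets, and the 5 neutrophil markers never summed to more than 0.189 CPM. The part of these cells in the differences of Odc1 and Smox was not tested. In such bulk libraries fewer cells of a type and less RNA per cell cannot be told apart.

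**Figure D1:**
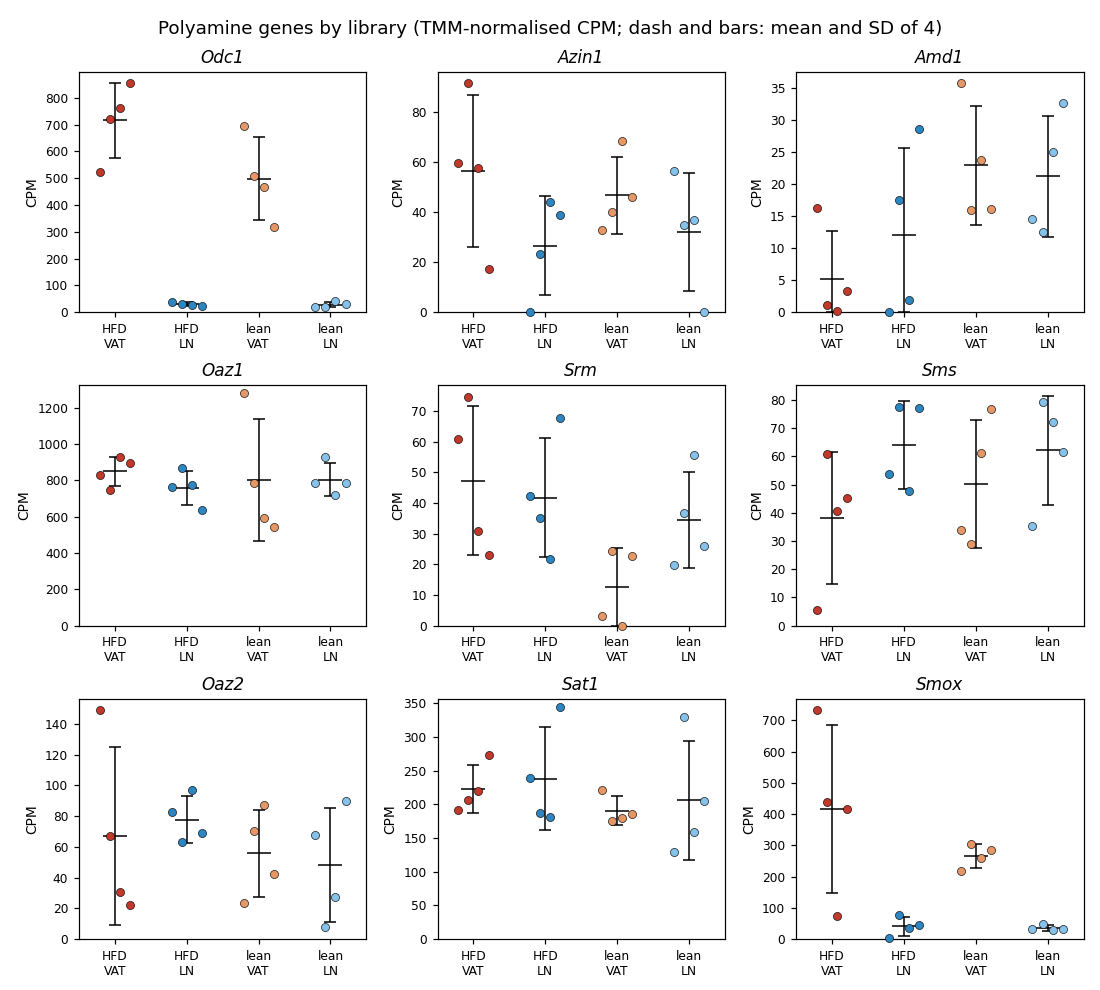
TMM-normalised CPM of the 9 polyamine genes (y axes, linear from 0) in each of the 16 libraries, by group; points are libraries, the dash and bars are the mean and SD of 4, cut at 0. Odc1 lies at 319 to 856 CPM in the 8 VAT libraries and at 18.1 to 39.7 CPM in the 8 LN libraries, and Smox averages 415 and 266 CPM in the VAT groups, against 40.7 and 35.5 CPM in the LN groups.

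Odc1, the entry enzyme, was higher in VAT on both diets. It had 525, 723, 761 and 856 CPM in the HFD VAT libraries, against 37.8, 30.5, 26.6 and 24.1 CPM in the HFD LN libraries. The lowest HFD VAT library stood above the highest HFD LN library by more than any spread within either group. The means were 716 ± 139 and 29.7 ± 5.99 CPM (SD, n = 4 each), a 24.1-fold difference, and the quasi-likelihood test of edgeR, adjusted by Benjamini-Hochberg over all tested genes, gave a log2 fold change of 4.59 ± 0.32 (SE, adjusted p = 2.71e-06). On standard chow Odc1 had 697, 510, 468 and 319 CPM in lean VAT, against 20.3, 18.1, 39.7 and 29.8 CPM in lean LN. These groups did not overlap either. The means were 498 ± 155 CPM in lean VAT and 27.0 ± 9.87 CPM in lean LN (SD, n = 4 each), an 18.5-fold difference (log2 fold change 4.21 ± 0.32, edgeR adjusted p = 6.67e-06).

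Smox, the spermine oxidase gene, was the other member that passed, on HFD, and its libraries were less even. It had 732, 438, 74.6 and 415 CPM in HFD VAT, against 2.52, 78.3, 35.9 and 45.9 CPM in HFD LN. Replicate 3 of HFD VAT lay just under the highest HFD LN library, so these groups overlapped. The means were 415 ± 269 CPM in HFD VAT and 40.7 ± 31.2 CPM in HFD LN (SD, n = 4 each), a 10.2-fold difference that passed the test (log2 fold change 3.35 ± 0.78, edgeR adjusted p = 0.0251). Smox lost that call without replicate 3 of HFD LN (edgeR adjusted p = 0.0745), replicate 4 of HFD LN (0.0708) or replicate 1 of HFD VAT (0.0692). A fit limited to the HFD groups also lost it (0.142).

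In lean animals the VAT libraries had 217, 304, 260 and 283 CPM of Smox, against 31.7, 49.2, 29.2 and 31.7 CPM in the LN libraries. Here all 4 VAT libraries stood above all 4 LN libraries. The means were 266 ± 37.5 CPM in lean VAT and 35.5 ± 9.26 CPM in lean LN (SD, n = 4 each), 7.501-fold apart, with a log2 fold change of 2.91 ± 0.77. The edgeR adjusted p of 0.0611 did not pass. Smox passed on standard chow with limma voom (adjusted p = 0.0319), with DESeq2 (0.00227), in a fit limited to the lean groups (0.00161), with a filter of 5 CPM in 4 libraries (0.0396), and without replicate 1 of HFD LN (0.00776) or replicate 3 of HFD VAT (0.0350). The tissue difference of Smox on HFD minus that in lean animals was 0.44 ± 1.01 on the log2 scale, which did not pass (edgeR adjusted p = 1.00).

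Of the 9 members, 2 rose and 0 fell in HFD VAT against HFD LN, where 2.68% of all tested genes rose and 1.88% fell. In lean VAT against lean LN 1 rose and 0 fell, where 2.12% of all tested genes rose and 0.919% fell. DESeq2 and limma voom each called 2 rises and no fall among the members on either diet. Over all 15675 tested genes, DESeq2 called 1186 rises and 1392 falls on HFD, and 907 and 662 on standard chow. By limma voom there were 626 rises and 384 falls on HFD, and 853 and 520 on standard chow. The libraries of VAT stood wholly above those of LN for 1 member on HFD and 2 on standard chow, against 7.21% and 7.24% of all tested genes. For 0 members they stood wholly below, against 8.01% of tested genes on HFD and 5.7% on standard chow. The median log2 fold change over the 9 was 0.16 on HFD, beside -0.10 over all tested genes, and 0.11 on standard chow, beside -0.003.

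**Figure D2:**
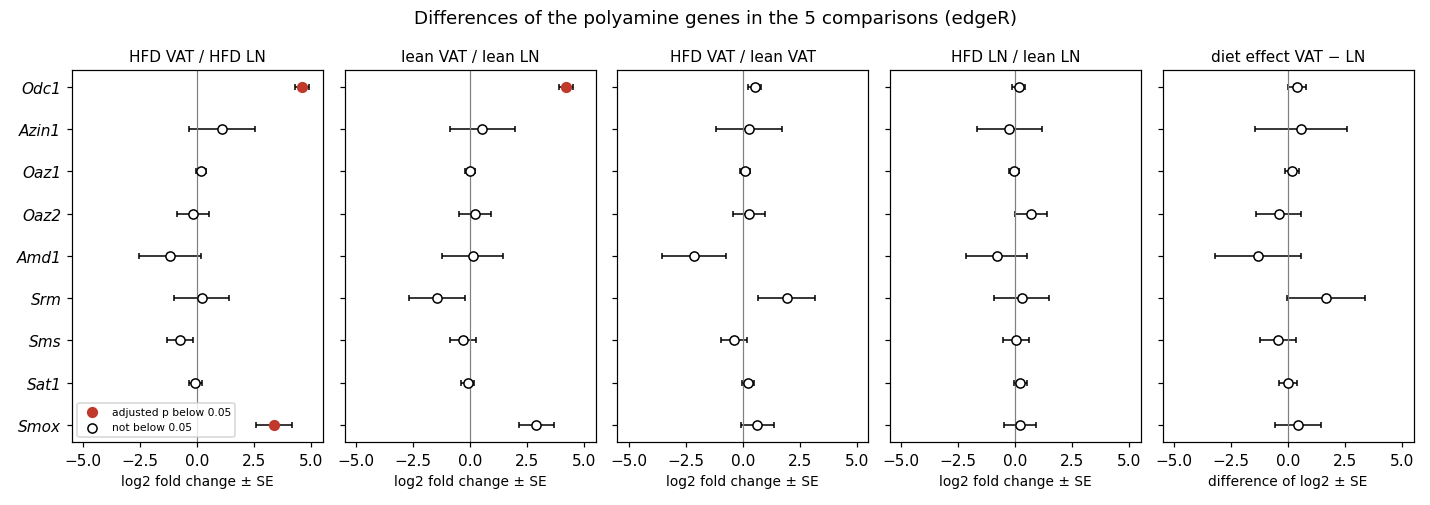
edgeR log2 fold changes ± SE (x axes) of the 9 polyamine genes (rows) in the 5 comparisons (columns; the last is the diet effect in VAT minus that in LN). Filled red points passed an adjusted p of 0.05: Odc1 in both tissue comparisons (4.59 and 4.21) and Smox on HFD (3.35); no member is filled in the diet columns, and the bars of Amd1, Azin1 and Srm are the widest.

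The regulators of ornithine decarboxylase did not pass in either tissue comparison. Oaz1, the main antizyme gene, had 830, 748, 931 and 895 CPM in HFD VAT, against 762, 867, 772 and 637 CPM in HFD LN. In lean animals it had 1283, 786, 594 and 544 CPM in VAT, against 783, 931, 721 and 784 CPM in LN. The groups overlapped on both diets, and replicate 1 of lean VAT was the highest of all 16 libraries. The log2 fold changes of Oaz1 were 0.16 ± 0.22 on HFD (edgeR adjusted p = 0.822) and -0.01 ± 0.22 on standard chow (1.00), the smallest errors among the 9. The processed pseudogene Oaz1-ps was counted at 59.8 to 171 CPM in the same libraries, and reads of such near-identical copies may not be separable from those of the gene.

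Oaz2, a second antizyme gene, ranged from 22.0 to 149 CPM in HFD VAT, against 62.8 to 96.7 in HFD LN, and from 23.3 to 87.0 CPM in lean VAT, against 8.16 to 90.0 in lean LN. VAT and LN libraries were interleaved, with log2 fold changes of -0.21 ± 0.71 on HFD (edgeR adjusted p = 0.949) and 0.21 ± 0.71 on standard chow (0.994). Azin1, the antizyme inhibitor gene, had 59.7, 91.4, 57.6 and 17.1 CPM in HFD VAT, against 0.136, 23.0, 44.1 and 38.9 CPM in HFD LN. It had 32.6, 40.1, 68.2 and 45.8 CPM in lean VAT, against 56.5, 34.9, 36.9 and 0 CPM in lean LN. Azin1 was thus all but missing from 1 LN library on each diet: replicate 1 of HFD LN held 8 counts, and replicate 4 of lean LN held 0 counts, which allows up to 0.0560 CPM. Its log2 fold changes were 1.09 ± 1.45 on HFD (edgeR adjusted p = 0.819) and 0.54 ± 1.43 on standard chow (0.987).

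The genes of the aminopropyl steps did not pass either. Amd1, whose enzyme makes decarboxylated S-adenosylmethionine, had 16.2, 1.09, 0.161 and 3.24 CPM in HFD VAT, against 0.0682, 17.6, 1.87 and 28.7 CPM in HFD LN. In lean animals it had 35.8, 15.97, 23.8 and 16.1 CPM in VAT, against 14.6, 12.5, 25.1 and 32.8 CPM in LN. Relative to their means, the HFD libraries of both tissues were more scattered than the lean libraries. Amd1 had log2 fold changes of -1.22 ± 1.35 on HFD (edgeR adjusted p = 0.763) and 0.11 ± 1.33 on standard chow (1.00). Its near-copy Amd2 lay at 0.134 to 0.305 CPM in HFD VAT and 0.341 to 1.79 CPM in HFD LN, and at 0.467 to 1.45 CPM in lean VAT and 0.557 to 2.22 CPM in lean LN, and how counts were divided between such copies is not given in the sources used here.

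Srm, the spermidine synthase gene, had 60.9, 74.6, 30.8 and 23.0 CPM in HFD VAT, against 42.3, 34.9, 21.7 and 67.7 CPM in HFD LN. In lean animals it had 3.03, 24.4, 0 and 22.6 CPM in VAT, against 19.6, 36.8, 55.6 and 25.9 CPM in LN. Replicate 3 of lean VAT held no Srm count, which allows up to 0.0639 CPM, and replicate 1 of lean VAT was also low. Srm had log2 fold changes of 0.18 ± 1.20 on HFD (edgeR adjusted p = 0.979) and -1.46 ± 1.22 on standard chow (0.790). Sms, the spermine synthase gene, averaged 38.1 ± 23.3 CPM in HFD VAT and 64.1 ± 15.5 CPM in HFD LN, and 50.2 ± 22.7 CPM in lean VAT and 62.1 ± 19.3 CPM in lean LN (SD, n = 4 each). One library, replicate 1 of HFD VAT, lay far below the rest at 5.54 CPM, and the groups overlapped. Its log2 fold changes were -0.75 ± 0.57 on HFD (edgeR adjusted p = 0.591) and -0.31 ± 0.57 on standard chow (0.972).

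Sat1, which encodes the acetyltransferase that opens the other route of breakdown, did not pass in either tissue comparison. It had 191, 207, 219 and 273 CPM in HFD VAT, against 239, 187, 181 and 345 CPM in HFD LN, and 222, 175, 180 and 186 CPM in lean VAT, against 129, 330, 159 and 205 CPM in lean LN. The highest library was an LN library on each diet, and the groups overlapped. Its log2 fold changes were -0.10 ± 0.28 on HFD (edgeR adjusted p = 0.937) and -0.11 ± 0.28 on standard chow (0.987).

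**Figure D3:**
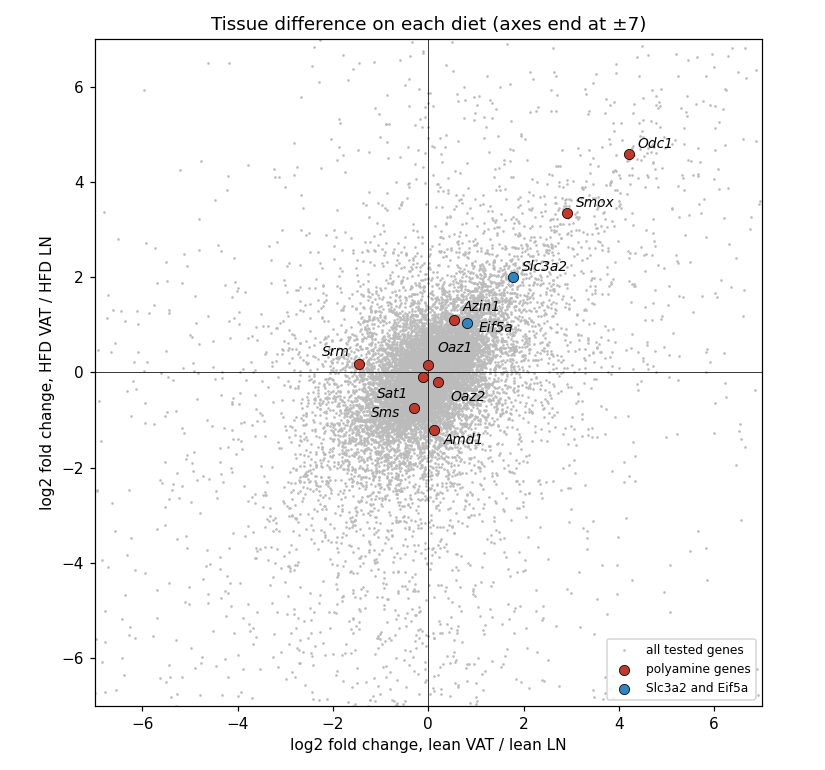
edgeR log2 fold change of VAT over LN on HFD (y axis) against that in lean animals (x axis) for all tested genes (grey), the 9 polyamine genes (red) and Slc3a2 and Eif5a (blue); axes end at 7 in either direction, which leaves out 1281 genes. Odc1 (4.59 and 4.21) and Smox (3.35 and 2.91) lie at the upper right, and the other 7 members lie within the dense cloud or at its edge.

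No member passed in either diet comparison. In HFD VAT against lean VAT 0 of 9 were called by edgeR, where 0.0574% of all tested genes were called, and in HFD LN against lean LN 0 of 9, where 0.0% were. DESeq2 and limma voom also called 0 members in each. Over all tested genes DESeq2 called 158 higher and 611 lower on HFD in VAT, and 97 and 139 in LN. With limma voom these were 21 and 11 in VAT, and 1 and 2 in LN. None of the 9 had an unadjusted edgeR p under 0.05, beside 8.08% of all tested genes in VAT and 3.37% in LN. Over the 9 the median log2 fold change was 0.27 in VAT, beside -0.10 over all tested genes, and 0.14 in LN, beside 0.001. Odc1 averaged 716 ± 139 CPM in HFD VAT and 498 ± 155 CPM in lean VAT (log2 fold change 0.52 ± 0.28, edgeR adjusted p = 0.706), and 29.7 ± 5.99 CPM in HFD LN and 27.0 ± 9.87 CPM in lean LN (0.14 ± 0.28, adjusted p = 1.00). The largest differences between diets were in VAT and in genes with wide errors: Amd1 averaged 5.18 ± 7.48 CPM in HFD VAT and 22.9 ± 9.32 CPM in lean VAT (log2 fold change -2.15 ± 1.39, edgeR adjusted p = 0.859), and Srm averaged 47.3 ± 24.5 CPM in HFD VAT and 12.5 ± 12.8 CPM in lean VAT (1.92 ± 1.24, 0.857). Smox had a log2 fold change of 0.64 ± 0.72 for diet in VAT and 0.20 ± 0.72 in LN (adjusted p = 1 for both). No member's libraries were wholly apart between the diets, where 3.22% of tested genes were in VAT and 2.26% in LN.

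The diet effects of VAT and LN were also compared with each other. Again 0 of 9 members were called, with none under an unadjusted p of 0.05 and none by DESeq2 or limma voom. Over all tested genes edgeR called 0.0191%, and 6.16% had an unadjusted edgeR p under 0.05. DESeq2 called 187 genes with a positive difference and 448 with a negative one, and limma voom 1 and 5. For Odc1 the diet effect in VAT minus that in LN was 0.38 ± 0.39 on the log2 scale (edgeR adjusted p = 1.00), and for Srm it was 1.65 ± 1.71 (1.00). Ordered by mean, Odc1 and Smox ran HFD VAT, lean VAT, HFD LN, lean LN, and only the step between lean VAT and HFD LN separated the libraries without overlap. For the other 7 members every neighbouring pair of groups in the order of means overlapped.

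Around the 9 genes, the lists for precursor supply, transport, spermidine use and the MYC network were read from the same fit. Of the 3 transport genes that passed the filter, among 10 in the list, 1 rose in VAT on each diet and none fell, where 2.68% of all tested genes rose on HFD and 2.12% on standard chow. This was Slc3a2, the heavy chain of several amino acid transporters that has also been linked to polyamine export. It had 831, 650, 920 and 644 CPM in HFD VAT, against 146, 283, 142 and 190.0 CPM in HFD LN, a 4.00-fold difference of means (log2 fold change 2.00 ± 0.24, edgeR adjusted p = 0.000151). In lean animals Slc3a2 averaged 648 ± 82.2 CPM in VAT and 190.0 ± 41.5 CPM in LN (SD, n = 4 each; log2 fold change 1.77 ± 0.23, adjusted p = 0.000493). Neither diet's groups overlapped.

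Of the 4 hypusine genes, all above the filter, 1 rose in VAT on each diet and none fell, beside the same shares of 2.68% and 2.12% of all tested genes. On HFD 2 had an unadjusted p under 0.05, beside 18.8% of all tested genes. Over those 15675 genes limma voom called 1010 and DESeq2 2578. Among the 4 hypusine genes limma voom called 1 and DESeq2 called 2. The second was Eif5a2, a close relative of Eif5a, named after its values were seen, with 6.30, 0, 0 and 12.2 CPM in HFD VAT against 0.0512, 0, 0 and 0 CPM in HFD LN (edgeR adjusted p = 0.196, DESeq2 0.0213). In lean animals Eif5a2 went the other way, with means of 1.00 CPM in VAT and 4.07 CPM in LN. That difference did not pass (log2 fold change -2.02 ± 2.50, edgeR adjusted p = 0.922). The highest of its 16 libraries was replicate 2 of lean LN, at 15.05 CPM. Eif5a, whose protein carries the hypusine made from spermidine, had 1247, 911, 830 and 941 CPM in HFD VAT, against 503, 500.4, 489 and 415 CPM in HFD LN. All VAT libraries stood above all LN libraries, 2.06-fold in the means (log2 fold change 1.04 ± 0.17, edgeR adjusted p = 0.00166). In lean animals Eif5a averaged 828 ± 206 CPM in VAT and 474 ± 26.7 CPM in LN (SD, n = 4 each; log2 fold change 0.80 ± 0.17, adjusted p = 0.0140), and the call was lost without replicate 3 (0.0536) or replicate 4 (0.0627) of lean LN and in a fit limited to the lean groups (0.0688). The enzymes that make hypusine did not pass on HFD: Dhps had 49.3 ± 34.6 CPM in HFD VAT and 59.1 ± 12.0 CPM in HFD LN, and Dohh 6.22 ± 4.67 CPM in HFD VAT and 11.7 ± 5.14 CPM in HFD LN (edgeR adjusted p = 0.868 and 0.823). In lean VAT Dhps averaged 72.8 ± 24.3 CPM, against 84.2 ± 14.2 CPM in lean LN, and Dohh 8.85 ± 5.10 CPM, against 10.9 ± 1.29 CPM (adjusted p = 0.976 and 0.998).

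Precursor genes did not pass with edgeR in a tissue comparison. In the arginine and ornithine list 7 of 11 genes passed the filter and 0 were called by edgeR on either diet. Unadjusted p was under 0.05 for 0 of them on HFD and 1 on standard chow, beside 18.8% and 13.8% of all tested genes. DESeq2 called 0 and 1, beside 2578 and 1569 of the 15675 tested genes, and limma voom called 0 on both. The DESeq2 call was a fall in VAT of Slc25a15, named after its values were seen (DESeq2 adjusted p = 9.16e-08). Slc25a15 had 0 counts in all 4 lean VAT libraries, against 0.0146, 0, 9.56 and 18.5 CPM in lean LN. Slc7a1, the cationic amino acid transporter CAT1, averaged 4.44 ± 5.09 CPM in HFD VAT and 10.4 ± 9.81 CPM in HFD LN, and 18.4 ± 13.4 CPM in lean VAT and 3.16 ± 1.69 CPM in lean LN (edgeR adjusted p = 0.789 and 0.581). Arg1, the liver-type arginase that yields ornithine and that macrophages can also express, had 0 counts in HFD VAT, 14 in HFD LN, 379 in lean VAT and 26 in lean LN over 4 libraries each. The lean VAT counts of Arg1 lay in replicate 2 (86) and replicate 3 (293). Arg2, the mitochondrial arginase, did not pass the filter, with 150 counts in HFD VAT, 88 in HFD LN and none in the lean groups. All 150 lay in replicate 1 of HFD VAT, and all 88 lay in replicate 2 of HFD LN.

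In the methionine and methylthioadenosine list all 9 genes passed the filter and 0 were called by edgeR on either diet. Unadjusted p was under 0.05 for 1 on HFD and 2 on standard chow, beside 18.8% and 13.8% of all tested genes. DESeq2 called 1 on each diet, beside 2578 and 1569 of the 15675 tested genes, and limma voom called 0. The DESeq2 calls were falls in VAT, in genes named after their values were seen. They were Amd2 on HFD (log2 fold change -1.76, DESeq2 adjusted p = 0.0361) and Mat2b on standard chow (-0.79, 0.0430). Mat2a, which makes S-adenosylmethionine, had 261 ± 108 CPM in HFD VAT and 281 ± 79.6 CPM in HFD LN, and 291 ± 41.5 CPM in lean VAT and 320.3 ± 22.0 CPM in lean LN. Mtap, which salvages the methylthioadenosine left by the aminopropyl steps, had 24.0 ± 23.6 CPM in HFD VAT and 81.1 ± 32.7 CPM in HFD LN, and 39.2 ± 18.5 CPM in lean VAT and 55.3 ± 39.9 CPM in lean LN (edgeR adjusted p = 0.527 and 0.984). Of the other breakdown and antizyme genes, 2 of 4 passed the filter and 0 were called by edgeR, DESeq2 or limma voom, with no unadjusted p under 0.05. Paox, the oxidase of acetylated polyamines, summed to 37 counts in HFD VAT, 1082 in HFD LN, 717 in lean VAT and 334 in lean LN, with 7 of the 16 libraries at 0.

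Odc1 and Srm are textbook targets of MYC, so the MYC network was read beside them. Myc had 305, 104, 180 and 190.3 CPM in HFD VAT, against 77.9, 162, 230 and 95.3 CPM in HFD LN, and 35.9, 84.2, 51.5 and 90.8 CPM in lean VAT, against 70.2, 119, 105 and 76.6 CPM in lean LN. VAT and LN overlapped on both diets (log2 fold changes 0.46 ± 0.41 and -0.50 ± 0.41, edgeR adjusted p = 0.671 and 0.785). Between the VAT groups, all 4 HFD libraries stood above all 4 lean libraries in Myc, where 3.22% of tested genes did not overlap in either direction. The log2 fold change of 1.57 ± 0.42 did not pass (edgeR adjusted p = 0.350). DESeq2 called Myc (adjusted p = 0.00545) among 769 of the 15675 tested genes. Between the VAT groups 1 of the 6 network genes had an unadjusted edgeR p under 0.05, beside 8.08% of all tested genes. So did 2 of 7 arginine and ornithine genes and 2 of 9 methionine genes. Over all tested genes, edgeR called 2.68% higher and 1.88% lower in VAT on HFD, and 2.12% and 0.919% on standard chow. Unadjusted p was under 0.05 for 13.8% on standard chow, where DESeq2 called 1569 of 15675 genes and limma voom 1373. Of the 6 network genes, 1 was called on HFD and 0 on standard chow by edgeR. On standard chow 1 had an unadjusted p under 0.05, and DESeq2 and limma voom each called 1. It was Mxd1, a MAX partner that opposes MYC, with 1014 ± 336 CPM in HFD VAT and 27.1 ± 27.5 CPM in HFD LN (log2 fold change 5.23 ± 1.26, edgeR adjusted p = 0.0288). In lean animals Mxd1 averaged 605 ± 92.5 CPM in VAT and 22.0 ± 11.04 CPM in LN (4.78 ± 1.23, adjusted p = 0.0528).

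The HFD call of Mxd1 was lost without replicate 1 (edgeR adjusted p = 0.0883) or replicate 4 (0.0754) of HFD LN and without replicate 1 (0.0607) or replicate 2 (0.0529) of HFD VAT. It was also lost without a filter (0.0619), in a fit limited to the HFD groups (0.140) and without the 3 VAT libraries with most missing genes (0.0907).

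**Figure D4:**
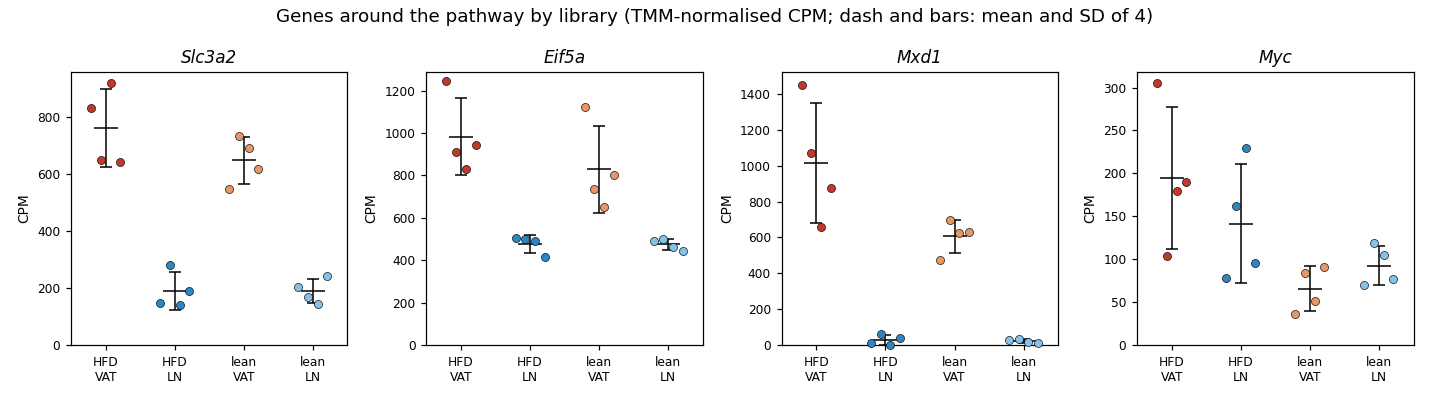
TMM-normalised CPM (y axes, linear from 0) of Slc3a2, Eif5a, Mxd1 and Myc in each library, by group; points are libraries, the dash and bars are the mean and SD of 4, cut at 0. Every VAT library lies above every LN library of its diet for Slc3a2, Eif5a and Mxd1, while for Myc the tissues overlap on both diets.

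The genes whose levels followed Odc1 most closely were Serpina3g (Pearson r = 0.987), Isg15 (0.987), Cxcl10 (0.985), Ccrl2 (0.984) and Ube2l6 (0.983). These correlations describe log2(CPM + 1) over the 16 libraries among tested genes with a mean of at least 20 CPM, and because all 16 share the split between tissues, any gene high in VAT and low in LN scores high. Serpina3g averaged 261 CPM in HFD VAT, 0.887 CPM in HFD LN, 173 CPM in lean VAT and 0.991 CPM in lean LN. For Sat1 the closest were Ndufaf3 (0.796), Rnf113a2 (0.756), Polr1f (0.681), Srp14 (0.659) and Sntb2 (0.611). Ndufaf3 averaged 40.7 CPM in HFD VAT, 58.5 CPM in HFD LN, 40.7 CPM in lean VAT and 39.6 CPM in lean LN.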

How the data were processed

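RNA of 16 libraries of sorted OT-I T cells was analysed as a table of raw counts per gene deposited by the authors, with whole numbers in 54456 gene rows and 16 columns. Per the submitters' processing notes, kallisto 0.42.4, DESeq2 and the build GRCh38 were used. That build is human while the row names are those of mouse genes, and how whole counts were made is not given in the sources used here. Library kit and sequencer are named in more than 1 way in the labels. Columns were matched to samples through the labels.

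Genes passing filterByExpr (15675) were fitted with edgeR 4.0.16 in R 4.3.3 (TMM, robust quasi-likelihood, 4 group means, common dispersion 1.52, threshold 0.05). SE is the log2 fold change over the square root of F. Contrasts were VAT over LN on each diet, HFD over lean in each tissue, and the difference of diet effects. Alternatives, 25 in all, were RLE and upper quartile factors, no filter, 5 CPM in 4 libraries, DESeq2 1.42.0, voom of limma 3.58.1 with sample weights, fits of just the compared groups, replicate blocks, leaving out each library, and leaving out the 3 VAT libraries with most missing genes. The fit was tested on simulated data. Figures and summaries used Python 3.11.15 and Matplotlib 3.10.9.

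The members, lists and alternatives were chosen with earlier results of these data known. Named genes are the 9 members, pathway genes that passed in a comparison with edgeR or DESeq2, and 11 further pathway genes fixed by name. The 5 closest genes to Odc1 and to Sat1 are also named, leaving out receptor segments, mitochondrial genes and unnamed models. Promoter windows come from RefSeq and exons from GENCODE M21, both on GRCm38. No coordinates of the counted genes are given, since their build is not known. Some single marker genes are not reported here.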

Additional observations from a re-analysis of the deposited data

Results flagged for a closer look

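Within each group, 18 genes were searched for a library set apart from the other 3, by its gap to the nearest of them relative to the range of the group. This gave 4 libraries in 72 groups tested, where chance gives about 1 in 20. Smox had 49.2 CPM in replicate 2 of lean LN, above 29.2 to 31.7 CPM in the others. Eif5a had 415 CPM in replicate 4 of HFD LN, below 489 to 503 CPM in the others. Dohh had 1.27 CPM in replicate 1 of lean VAT, below 10.5 to 12.2 CPM in the others, and 9.03 CPM in replicate 3 of lean LN, below 11.4 to 11.8 CPM in the others.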

How the results depend on the processing

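Odc1 passed in both tissue comparisons under all 25 alternatives, with log2 fold changes of 4.49 to 4.73 on HFD and 3.97 to 4.44 on standard chow. Slc3a2 also passed under all 25 in both. Smox passed on HFD under 20 of 25 (log2 fold change 2.93 to 4.15) and on standard chow under 6. On HFD 2 members were called, against 1 in a fit limited to the compared groups, 1 with the replicate block and 1 to 2 when a library was left out. On standard chow 1 was called, against 2 with the 5 CPM filter, 2 with DESeq2, 2 with limma voom, 2 in a fit limited to the compared groups and 1 to 2 when a library was left out. No called value of a named gene changed sign under these alternatives, while 268 values that were not called did. The causes of these changes were not tested.

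Over all tested genes, 714 were called between the tissues on HFD (420 higher, 294 lower), against 441 without a filter and 2578 with DESeq2 (1186 higher, 1392 lower). On standard chow 476 were called, against 1569 with DESeq2 and 1373 with limma voom. Between diets in VAT 9 were called, against 2 without a filter, 769 with DESeq2, 32 with limma voom, 0 in a fit limited to the compared groups, 1 with the replicate block, 62 without the 3 VAT libraries with most missing genes and 3 to 40 when a library was left out. Between diets in LN edgeR called 0 (529 at an unadjusted p under 0.05), against 236 with DESeq2, 3 with limma voom and 0 to 1 when a library was left out. For the difference of diet effects 3 were called, against 1 with upper quartile factors, 1 without a filter, 1 with the 5 CPM filter, 635 with DESeq2, 6 with limma voom, 0 with the replicate block, 46 without those 3 VAT libraries and 0 to 24 when a library was left out.

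Samples with the same replicate number did not deviate together (correlations -0.0982 to 0.0446), so the numbers were not taken to pair them. Under the replicate block Smox and Mxd1 missed the threshold on HFD (edgeR adjusted p = 0.0642 and 0.0626). RLE factors moved the median of all genes in the difference of diet effects to -0.01 and limma voom to -0.25, against -0.11 with TMM, and leaving out a library gave -0.18 to -0.04. Oaz2, Azin1, Amd1, Srm, Sms and Smox had errors above 0.5 on the log2 scale in every comparison, which limits what 4 libraries a group can show for them.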
